A study of Mus musculus with 4 samples.

Results

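The plasminogen activation system of cultured mouse spermatogonial stem cells was followed through 5 genes: Plau, Plat, Plaur, Serpine2 and Serpinb2. They were found by gene name on the array, where they are measured by 10 of 41174 probes, and they are 5 of the 18454 genes that passed the filter on dim probes. The genes were chosen with their response in these same arrays in view, so their values are given as a description, with no p-value, and a count of their calls is no evidence. The treated cultures, labelled -F+S, were kept for 12 h in medium from which FGF2 had been withdrawn and to which SU5402, an inhibitor of the FGF receptor kinase, had been added. The control cultures stayed in the normal serum-free medium, which holds 40 ng/ml GDNF and 5 ng/ml FGF2. All cells of both groups were labelled as day 5 and as C57/BL6 x DBA/2 F1. For the -F+S medium the labels name only the 2 changes. Each of 4 two-colour arrays carried RNA of 1 -F+S culture in green and of 1 control culture in red, which gives 4 pairs, called replicates 1 to 4. The dyes were never swapped, so a dye effect of a single probe cannot be told apart from the treatment, and FGF2 withdrawal cannot be told apart from the inhibitor.

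Plasminogen is the inactive precursor of plasmin, a serine protease that digests fibrin and matrix proteins and activates other enzymes. It is cut by either of a pair of activators: urokinase, encoded by Plau, and tissue plasminogen activator, encoded by Plat. Urokinase is held at the cell surface by its receptor, encoded by Plaur, and both activators are blocked by serpins, which trap the protease in a dead-end complex. In the testis, Sertoli cells are known to secrete plasminogen activators, and in other cell types Plau and Plaur are known to respond to growth factors through AP-1 and ETS transcription factors.

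Probe sequences are shown for 1 probe each of 4 genes, all with at least 1 reading frame free of stop codons over their 60 bases, because the ratios below belong to these stretches and not to whole transcripts. They are given 5′ to 3′ as in the files, with positions in mm9, and the capitals in the Serpinb2 probe mark the 20 bases that it shares with the other Serpinb2 probe.
Plau probe A_51_P305311, chr14:21659855-21660221: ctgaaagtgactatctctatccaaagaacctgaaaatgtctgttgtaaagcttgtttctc
Plaur probe A_51_P112405, chr7:25259315-25259374: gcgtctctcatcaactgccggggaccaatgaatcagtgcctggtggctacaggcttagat
Serpine2 probe A_51_P268094, chr1:79793476-79796093: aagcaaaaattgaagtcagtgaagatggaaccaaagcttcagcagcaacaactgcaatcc
Serpinb2 probe A_52_P639522, chr1:109421456-109421515: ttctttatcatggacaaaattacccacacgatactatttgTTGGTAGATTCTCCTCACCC

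The Plau and Serpine2 probes above span 367 and 2618 bases of the genome, more than their own 60 bases, so each joins pieces that are apart in the genome. The 2 Serpinb2 probes overlap and are therefore not independent measurements of the gene.

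Promoters are shown for the genes that had an entry in the RefSeq promoter table of GRCm38.p6, which were Plaur, Serpine2 and Serpinb2, because AP-1 and ETS factors are among the known routes from FGF receptors to this system. Each line holds the 250 bases before the transcription start on the strand of the gene. Capitals mark matches to the AP-1 motif TGANTCA or to the ETS motif AGGAAG, searched on both strands. No match of one motif overlapped a match of the other.
Plaur promoter, chr7:24462233-24462482, plus strand: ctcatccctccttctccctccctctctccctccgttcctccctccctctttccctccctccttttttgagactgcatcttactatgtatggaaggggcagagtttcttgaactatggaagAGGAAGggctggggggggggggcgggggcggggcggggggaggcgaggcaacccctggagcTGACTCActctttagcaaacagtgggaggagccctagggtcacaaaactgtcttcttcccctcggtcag
Serpinb2 promoter, chr1:107511173-107511422, plus strand: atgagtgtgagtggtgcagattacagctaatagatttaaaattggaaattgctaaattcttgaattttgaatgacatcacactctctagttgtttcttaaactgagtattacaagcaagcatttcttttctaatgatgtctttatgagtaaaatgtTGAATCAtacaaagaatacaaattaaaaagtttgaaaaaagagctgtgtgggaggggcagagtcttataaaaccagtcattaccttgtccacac
Serpine2 promoter, chr1:79858666-79858915, minus strand: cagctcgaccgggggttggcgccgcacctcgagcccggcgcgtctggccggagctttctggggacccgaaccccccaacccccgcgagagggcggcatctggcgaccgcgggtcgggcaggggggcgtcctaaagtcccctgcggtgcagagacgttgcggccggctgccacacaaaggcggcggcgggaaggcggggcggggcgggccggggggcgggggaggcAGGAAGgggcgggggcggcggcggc

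The Plaur window holds 1 AP-1 match, 69 to 63 bases before the start, and 1 ETS match. The Serpinb2 window holds 1 AP-1 match, 94 to 88 bases before the start, and no ETS match; a second Serpinb2 start in the table has the same AP-1 match in its window. The Serpine2 window holds 1 ETS match, 25 to 20 bases before the start, and no AP-1 match. Among 32851 promoter windows of the table with the same length, 6.7% held the AP-1 motif and 29.5% the ETS motif. The base composition of the windows differs widely, with 32.4% G and C for Serpinb2, 59.6% for Plaur and 78.8% for Serpine2. These matches are letters in a window and say nothing on binding.

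The cultures were not of germ cells alone, and beside each count below stands a background of 37.5% of all genes called higher and 30.9% called lower. Of 16 spermatogonia markers, 15 were measured, and Zbtb16 was found under no probe name, so it is not analysed here. All 11 Sertoli cell markers and all 12 markers each of fibroblast and peritubular cells and of macrophages and monocytes were also measured. The summed normalized intensity of the Sertoli markers was 482000 to 517000 in -F+S cultures, against 114000 to 121000 in control cultures, and 11 of 11 were called higher by limma. Fshr, 1 of these 11, was well above background on 4 of 4 arrays in -F+S cultures and 1 of 4 in controls. It passed the filter through the -F+S cultures alone. Fibroblast and peritubular markers summed to 1650000 to 1790000 in -F+S cultures and 610000 to 691000 in control cultures, with 11 of 12 called higher. Macrophage and monocyte markers summed to 54800 to 68000 in -F+S cultures and 137000 to 161000 in control cultures, with 11 of 12 called lower and 1, Aif1, higher. Of 10 neutrophil markers, 3 were measured and 2 called lower, while S100a9, Csf3r, Cxcr2, Ngp and Ltf were well above background on no array in either group, and Elane in no -F+S culture and 2 of 4 controls. S100a8, 1 of the 2 called lower, was well above background on 2 of 4 arrays in -F+S cultures and 4 of 4 in controls. It passed the filter through the controls alone. The spermatogonia markers summed to 315000 to 351000 in -F+S cultures and 415000 to 456000 in control cultures, with 7 called lower and 2 higher. Endothelial markers summed to 11200 to 14400 in -F+S cultures and 13600 to 16000 in control cultures, with 5 of 8 called lower and 2 higher. The sums are of linear intensities, so the brightest markers weigh most in them, such as Clu for Sertoli cells and Lyz2 for macrophages and monocytes. In such bulk samples fewer cells of a type and less RNA per cell cannot be told apart.

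Both activator genes had higher levels in every -F+S culture than in any control culture. Plau, the urokinase gene, had log2 levels of 10.93, 10.74, 10.90 and 10.82 in the -F+S cultures of replicates 1 to 4, against 9.97, 10.12, 10.03 and 10.17 in their controls. The groups did not overlap, and each varied little within itself, with an SD of 0.086 in -F+S cultures and 0.090 in controls. On the arrays this gave log2 ratios of -F+S over control of 0.97, 0.63, 0.87 and 0.65, a mean of 0.78 (SD 0.17, SE 0.081, n = 4), or 1.71-fold. The brightest probe of Plau lies at 21662242 to 21662301 on chromosome 14 (mm9).

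The other Plau probe, the one printed above, gave a smaller ratio. Its log2 ratios were 0.26, 0.34, 0.22 and 0.28, with a mean of 0.28 (SD 0.048, n = 4). This probe was dim: it was well above background on 3 of 4 arrays in the -F+S cultures and on none in the controls. Its measured fold was 1.21. The lower bound on the fold, worked out as described below, was also 1.21, so it adds no margin to the measured value. With the scanner's own processed signals, which carry no added offset, the same dim probe had a median-centred mean of 0.93 (SD 0.23). Changing only the background step gave 0.38 without correction and 0.39 with an offset of 10, so the processed signals, which also differ in normalization, stood apart. The 2 Plau probes had the same direction. The dim probe passed the filter through the -F+S cultures alone, so it could only be higher and its direction adds no support.

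Plat, the gene of tissue plasminogen activator, had log2 levels of 14.59, 15.02, 14.68 and 14.79 in -F+S cultures of replicates 1 to 4, against 13.92, 13.93, 13.86 and 13.84 in controls. The groups did not overlap. The controls lay close together (SD 0.042), and the -F+S cultures spread further (SD 0.18), with replicate 2 at the top. The log2 ratios were 0.66, 1.09, 0.82 and 0.94, a mean of 0.88 (SD 0.18, SE 0.083, n = 4), or 1.84-fold. This probe lies at 23893092 to 23893152 on chromosome 8 (mm9).

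A second Plat probe, at 23892531 to 23892590 on chromosome 8, gave log2 ratios of 0.17, 0.52, 0.50 and 0.71. Its mean of 0.48 (SD 0.23) was 0.40 below that of the brightest probe, and it was the lower of the 2 probes on every array. The third Plat probe comes from a single cDNA clone and lies at 23886301 to 23886360, some distance before the other pair. It was well above background on 2 of 4 arrays in -F+S cultures and on 1 of 4 in controls, so it did not pass the filter and has no entry in the fit. Its log2 ratios lay between -0.0034 and 0.11, and the levels of its groups overlapped.

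Plaur, the urokinase receptor gene, ran opposite to its ligand. Its log2 levels were 12.51, 12.35, 12.31 and 12.38 in the -F+S cultures of replicates 1 to 4, against 13.12, 12.98, 13.09 and 13.09 in controls. All -F+S cultures lay below all controls. The log2 ratios were -0.60, -0.63, -0.78 and -0.71, a mean of -0.68 (SD 0.082, SE 0.069, n = 4), which is 1.60-fold lower. The SD between arrays was 0.082, against a median SD of 0.147 over all genes.

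The second Plaur probe, printed above, gave a slightly larger difference. Its log2 ratios were -0.97, -0.76, -1.16 and -0.69, with a mean of -0.89 (SD 0.21, n = 4), or 1.86-fold lower. The brightest probe minus the second was -0.025 on replicate 4 and 0.13 to 0.38 on the other arrays. The probes lie at 25260569 to 25260628 and 25259315 to 25259374 on chromosome 7.

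**Figure D1:**
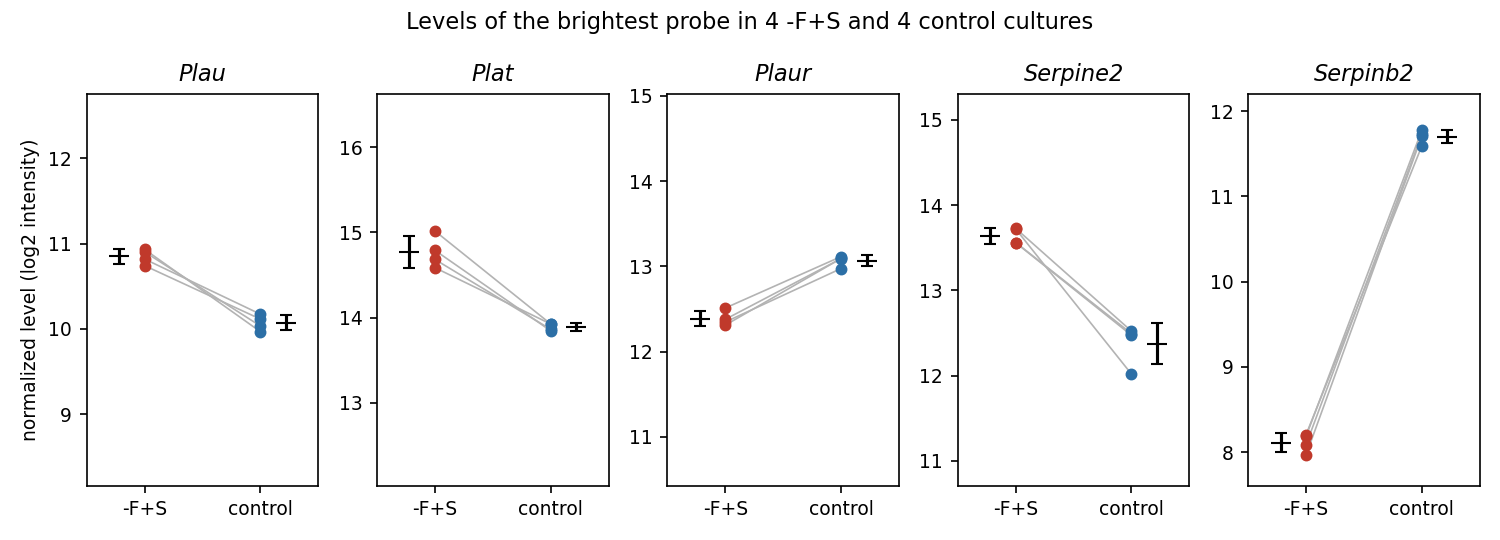
Normalized log2 level of the brightest probe of each gene in the 4 -F+S cultures (red, left) and the 4 control cultures (blue, right). Grey lines join the cultures that shared an array, black marks are means with SD, and every panel spans the same range of log2 units. The groups do not overlap for any of the 5 genes, which were chosen on this contrast, as for 61.2% of all genes. Serpinb2 has the widest gap of the 5.

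The 2 inhibitor genes differed in direction. Serpine2 encodes protease nexin 1, a secreted serpin that blocks urokinase, tissue plasminogen activator, plasmin and thrombin. Its log2 levels were 13.56, 13.73, 13.56 and 13.72 in the -F+S cultures of replicates 1 to 4, against 12.47, 12.52, 12.49 and 12.02 in controls. The groups did not overlap, and the control of replicate 4 lay below the other controls. The log2 ratios were 1.09, 1.21, 1.07 and 1.70, a mean of 1.27 (SD 0.30, SE 0.11, n = 4), or 2.40-fold higher in -F+S cultures. Without replicate 4 the mean was 1.12. Serpine2 has 1 probe on the array, so no second probe bears on it.

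Serpinb2, also called plasminogen activator inhibitor 2, is a largely intracellular serpin known from macrophages, and it showed the widest gap of the 5 genes. Its log2 levels were 8.20, 8.19, 7.97 and 8.09 in the -F+S cultures of replicates 1 to 4, against 11.59, 11.77, 11.71 and 11.73 in controls. The log2 ratios were -3.39, -3.59, -3.74 and -3.64, a mean of -3.59 (SD 0.15, SE 0.078, n = 4), or 12.0-fold lower. All -F+S cultures lay far below all controls, and 4 of the 18454 genes had a lower ratio.

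The overlapping Serpinb2 probe gave ratios of -3.22, -3.59, -3.56 and -3.43, with a mean of -3.45 (SD 0.17). Before any correction, the mean signal of the brighter Serpinb2 spot was 213 to 258 in -F+S cultures and 2971 to 4331 in controls. It was well above background on all 4 arrays in both groups. The size of the fold moved with the processing. No background correction gave a mean of -3.69 and an offset of 10 in place of 50 gave -3.83. The scanner's LogRatio, which differs in background, dye normalization and centring at once, gave -4.28 (SD 0.14), or 19.4-fold lower. Macrophage and monocyte markers were lower on the same arrays by a median log2 ratio of -1.01, and their part in the Serpinb2 and Plaur values was not tested. Likewise the Sertoli markers were higher by a median of 1.89 and the fibroblast and peritubular markers by 1.56, and their part in the Plau, Plat and Serpine2 values was not tested.

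**Figure D2:**
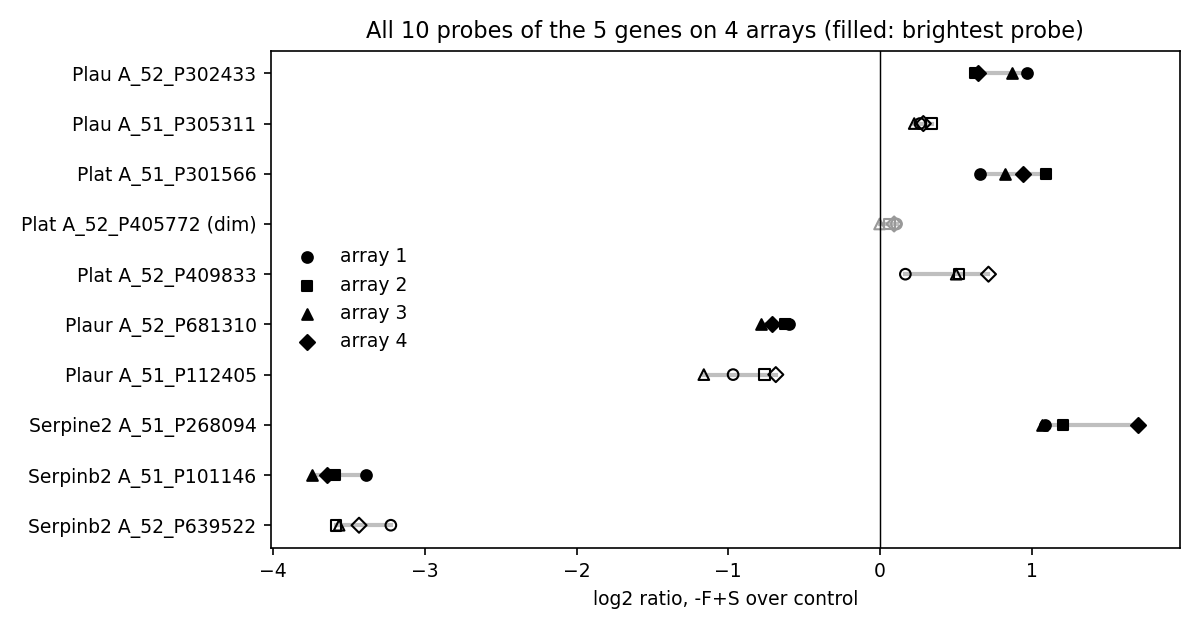
Log2 ratio of -F+S over control for all 10 probes of the 5 genes, 1 marker per array, with filled markers for the brightest probe of a gene, open markers for the others and grey bars for the range. Probes of a gene share their direction apart from the dim Plat probe A_52_P405772, which lies near 0, and the probes differ in size most for Plau and Plat. The dimmer Plau probe passed the filter through the -F+S cultures alone, so it could only be higher.

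All 5 genes were called by limma, 3 higher and 2 lower, and 68.4% of all 18454 genes were called, 37.5% higher and 30.9% lower. The same held for the 9 member probes that passed the filter, 5 higher and 4 lower, where 66.4% of 27730 probes were called, 37.3% higher and 29.1% lower. The levels of the 2 groups did not overlap for 5 of 5 genes, as for 61.2% of all genes, with the -F+S levels above in 34.1% and below in 27%. The dim Plau probe, among the probes called higher, passed the filter through the -F+S cultures alone. Since the genes were chosen on this contrast, nothing is read from these counts.

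In order of their ratios the genes ran from Serpinb2 through Plaur, Plau and Plat to Serpine2. Plat and Plau could not be ordered: Plat minus Plau was -0.30, 0.46, -0.049 and 0.30 on the 4 arrays. Serpine2 was above Plat on every array, by 0.12 to 0.76, and above Plau by 0.12 to 1.06. Plau exceeded its receptor gene Plaur by 1.46 on average (SD 0.18), with 1.25 to 1.65 on single arrays. The distance between Plaur and Serpinb2 was the steadiest of the pairs compared, 2.91 on average with an SD of 0.085.

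The genes whose 8 culture levels were most like those of Serpinb2 were Saa1, Marco and Ccl4. Likeness was the root mean square difference of log2 levels after the mean of each gene was removed, and it was 0.14 for Saa1, an acute-phase protein, 0.21 for Marco, a macrophage scavenger receptor, and 0.23 for Ccl4, a chemokine. The nearest genes of Plaur were Smpd3 (0.039), Hormad2 (0.040) and Ncapd2 (0.041), which encode a sphingomyelinase, a protein of meiotic chromosomes and a condensin subunit. Those of Plau were Oxld1 (0.035), Mmut (0.045), a mitochondrial mutase, and Snhg14 (0.051), a noncoding RNA. Nedd4 (0.047), a ubiquitin ligase, Gpt2 (0.063), an aminotransferase, and Cdc42se1 (0.064) were nearest to Plat. Golim4 (0.078), Ccdc122 (0.079) and Fgf13 (0.080) were nearest to Serpine2. These are likenesses over 8 levels that share 4 arrays and 1 contrast.

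Plasminogen itself was not measurable: 1 Plg probe was well above background on no array, and the other on 1 of 4 arrays in -F+S cultures and 1 of 4 in controls. Of 14 genes of plasminogen and its soluble inhibitors, 9 were tested, 5 were called higher and 2 lower, beside 37.5% higher and 30.9% lower over all genes. Median centring in place of loess called none of them lower. Their median log2 ratio was 0.65, against 0.023 over all genes. Serpina5, the protein C inhibitor, which also blocks urokinase and is abundant in the male reproductive tract, rose 7.60-fold (log2 2.93, SE 0.070, limma adjusted p = 6.8e-09, n = 4). A second Serpina5 probe gave 1.34. A2m, a broad protease inhibitor of plasma, had a log2 ratio of 0.96 (limma adjusted p = 2.15e-05), and its second probe gave 0.62. Serpinf2, the alpha-2-antiplasmin gene, fell by 0.22 on the log2 scale (limma adjusted p = 0.0144). Its signal was low, and it was well above background on 3 of 4 arrays in each group. It lost that call when arrays were centred on their median without loess (-0.21, limma adjusted p = 0.216). Vtn, which encodes the matrix and plasma protein vitronectin, had a ratio of 0.16 and was not called (limma adjusted p = 0.0783).

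Most of the listed plasminogen receptors and urokinase receptor partners were called higher. Of 19 plasminogen receptors and partners of the urokinase receptor, all were tested, 13 called higher and 6 lower, and the median was 0.88 on the log2 scale. That is 68.4% higher and 31.6% lower, beside 37.5% and 30.9% over all genes, and centring on the median without loess called 13 higher but 2 lower. Plgrkt, a plasminogen receptor of the plasma membrane, rose 2.50-fold (log2 1.32, SE 0.072, limma adjusted p = 3.2e-07). Anxa2 and S100a10, which together form a surface complex that binds plasminogen and tissue plasminogen activator, had log2 ratios of 1.30 (limma adjusted p = 9.16e-07) and 1.69 (limma adjusted p = 4.74e-07). Mrc2, an endocytic collagen receptor that associates with the urokinase receptor, had a ratio of 1.45 (limma adjusted p = 9.04e-07). Lrp1, which clears activator and serpin complexes from the surface, was higher by 0.53 (limma adjusted p = 0.000479). The integrin subunits of the list, named after their values were seen, were called in both directions. Itgb1 and Itgav were 2.53-fold and 2.63-fold higher, and Itgam, Itgb2, Itga3, Itga5 and Itgb3 were lower, with log2 ratios of -0.54, -0.29, -0.33, -0.33 and -0.40; Itgam is also in the macrophage marker list, and its ratio was -0.99 on replicate 1 and 0.072 on replicate 4. Fpr2 is a formyl peptide receptor that binds a fragment of the urokinase receptor. It was well above background in no -F+S culture and in all 4 controls, which makes it at least 3.13-fold lower. It passed the filter through the controls alone, so it could only be lower, and it is among the 6 called lower. Lrp2, named after its values were seen, was well above background on 4 of 4 arrays in -F+S cultures and 2 of 4 in controls. It passed the filter through the -F+S cultures alone and is among the 13 called higher. Of the 17 listed genes well above background in both groups on all arrays, 12 were called higher and 5 lower.

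Targets of plasmin and urokinase were called in both directions, 12 higher and 8 lower among 20 tested of 22 listed (60% and 40%, beside 37.5% and 30.9% over all genes), and the median was 1.19 on the log2 scale. Pdgfd and Pdgfc, growth factors of the PDGF family that are activated by proteolysis, with urokinase and tissue plasminogen activator as known activators, rose 7.76-fold (log2 2.96, SE 0.087, limma adjusted p = 1.15e-08) and 3.95-fold (log2 1.98, SE 0.074, limma adjusted p = 3.57e-08). Second probes gave log2 ratios of 2.39 for Pdgfd and 1.94 for Pdgfc. Igfbp5, an IGF-binding protein that plasmin can cleave, had a log2 ratio of 2.09 (limma adjusted p = 3.35e-08) and of 1.18 at its second probe. Mmp9, the gelatinase B gene, fell by 1.71 on the log2 scale (SE 0.089, limma adjusted p = 2.58e-07), or 3.27-fold, and its second probe gave -1.50. Mmp12, named after its values were seen, was well above background on 1 of 4 arrays in -F+S cultures and 4 of 4 in controls. It passed the filter through the controls alone and is among the 8 called lower. Of the 19 listed genes well above background in both groups on all arrays, 12 were called higher and 7 lower.

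**Figure D3:**
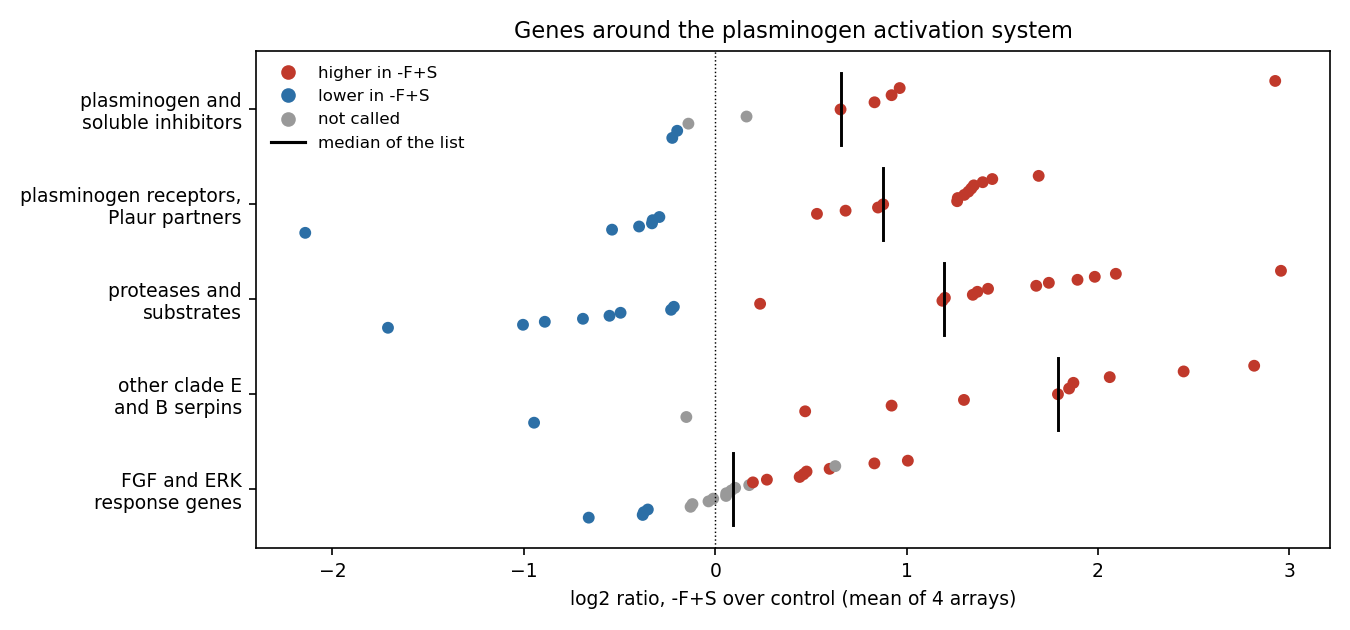
Mean log2 ratio of -F+S over control, n = 4 arrays, for the tested genes of 5 lists around the plasminogen system, red if called higher by limma, blue if called lower and grey if not called. Black bars are list medians; the other serpins have the highest median, 1.79, and the FGF and ERK response genes lie around 0 with a median of 0.094.

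Of 17 other clade E and clade B serpins, 11 were tested, 9 were called higher and 1, Serpinb12, lower, with a median log2 ratio of 1.79, beside 37.5% higher and 30.9% lower over all genes. Of the higher ones, Serpinb1b, Serpinb1c and Serpinb8 were well above background in no control and passed the filter through the -F+S cultures alone, so they could only be higher. Serpins well above background in both groups on all arrays numbered 6, and 6 were called higher. Serpinb1a, an inhibitor of neutrophil proteases, rose 7.04-fold (log2 2.82, SE 0.070, limma adjusted p = 7.43e-09). Serpinb6b and Serpinb6c had log2 ratios of 2.45 (limma adjusted p = 1.13e-08) and 2.06 (limma adjusted p = 1.1e-06). They have close paralogs on the array, and cross-hybridisation between these was not tested. Serpinb12 was named after its values were seen, at -0.95, and was well above background on 1 of 4 arrays in -F+S cultures and 3 of 4 in controls. Serpinb12 thus passed the filter through the controls alone.

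Of 23 genes that commonly follow FGF and ERK signals, 22 were tested, 8 were called higher, 4 lower and 10 not called, with a median log2 ratio of 0.094. The share called higher, 36.4%, was near the 37.5% over all genes, and 18.2% were called lower beside 30.9%. Among them are genes of the AP-1 and ETS families, whose motifs were searched in the promoters above. Fosl1, an AP-1 subunit, fell by 0.66 on the log2 scale (SE 0.077, limma adjusted p = 5.42e-05). Jun, another AP-1 subunit, had a ratio of 1.01 (SE 0.069, limma adjusted p = 1.5e-06) and the stress-response gene Ier3 of 0.83 (limma adjusted p = 1.62e-05). Dusp6, an ERK phosphatase, had a ratio of -0.011 (limma adjusted p = 0.902). The ETS gene Etv5 gave 0.056 at its brightest probe (limma adjusted p = 0.634) and -0.57 at its second (limma adjusted p = 0.000452 among all probes), so its probes disagree. The other listed genes of these families were named after their values were seen. The AP-1 genes Fos, Fosb and Junb were not called, and the ETS genes Etv1 and Etv4 were called higher (0.48) and lower (-0.38).

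The direction of all 5 genes was the same under each of the 15 alternatives tried, except that Serpine2 has no second probe, and their sizes differed. Not every alternative could change a ratio. Both changes of the filter and the fit without pairing used the same probes and returned the same ratios. The deposited matrix repeated the LogRatio values. Across the brightest probes, the alternatives that changed normalization or background correction gave 0.62 to 0.87 for Plau, 0.71 to 0.88 for Plat, -0.84 to -0.64 for Plaur, 1.09 to 1.29 for Serpine2 and -4.28 to -3.51 for Serpinb2. The lowest ratios of Plau, Plat and Serpine2 in these ranges came with the scanner's LogRatio, under which the median of all genes was -0.12 instead of 0.023.

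**Figure D4:**
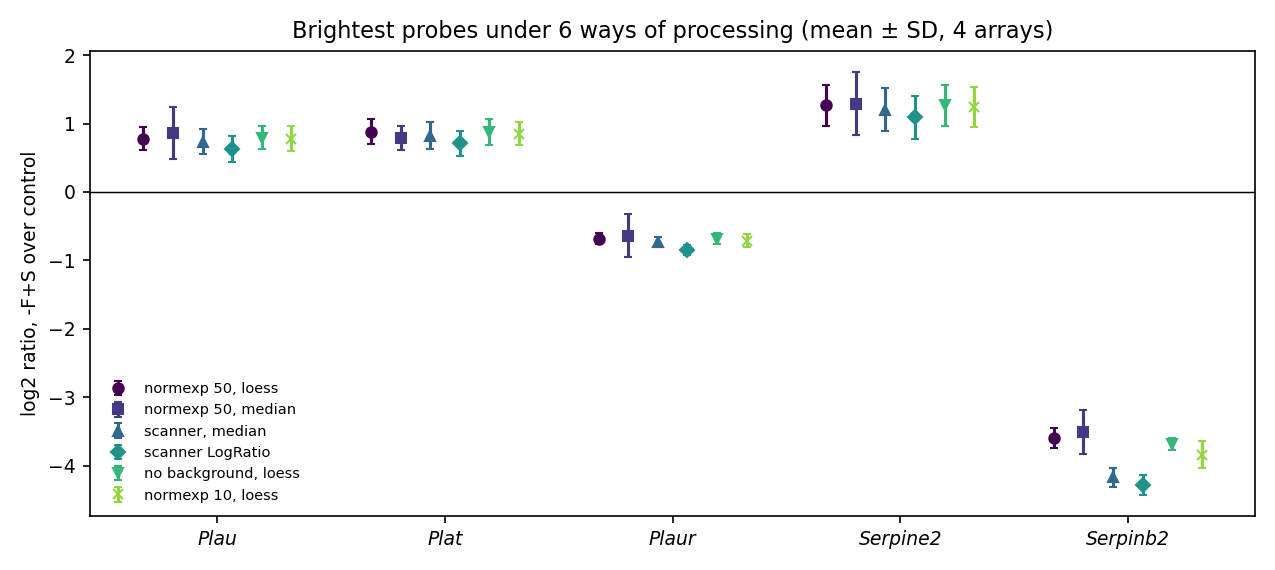
Mean log2 ratio of -F+S over control with SD over 4 arrays for the brightest probe of each gene, under 6 ways of correcting background and normalizing. Plau, Plat and Serpine2 stay above 0 and Plaur and Serpinb2 below 0 in all 6, and Serpinb2 differs most between them, from -4.28 to -3.51.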

How the data were processed

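RNA of 4 -F+S and 4 control cultures was measured on 4 two-colour Agilent arrays, which the file headers place on 1 slide and in 1 scan, so neither is a batch here. The spot values are linear intensity values deposited by the authors, and the submitters' processing notes name Agilent Feature Extraction 10.5.1.1 as the software; probe positions are in mm9, per the file headers. The processed intensity values came from a background step with spatial detrending and from a dye normalization step of that software, per the file headers. LogRatio is log10 of red over green, per the file headers. The series matrix holds log2 values deposited by the authors with scale, centring and direction unstated; for 100% of probes they equalled log2 of green over red processed signal within 0.001, and the column medians were -0.26, 0.012, 0.11 and -0.058.

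Background was corrected here with normexp (offset 50), ratios were normalized by loess within each array with control spots at weight 0, and outlier spots (141 to 171 per array) were left out. A probe was kept if 1 channel was well above background on 3 or more of the 4 arrays (27730 probes), and the brightest stood for its gene. Levels are log2 intensities after Aquantile scaling, and they are not compared between probes. Limma 3.58.1 in R 4.3.3 tested the log2 ratio against 0, two-sided, with Benjamini-Hochberg adjustment over all genes, and called genes at an adjusted p under 0.05. The procedure was tested on simulated data. Few genes changed in those data, unlike on these arrays, so that test does not vouch for the calls here. Figures and sequence searches used Python 3.11.15. A lower bound on a fold uses, for the dim group, the higher of a probe's own level and the lowest level of any probe well above background in that array. Names came from the files, updated by RefSeq accession (25097 probes) or symbol (7973 probes), with 8104 left as in the files. Ratios correlated between arrays with r of 0.907 to 0.948 across genes, which are not independent replicates. The number of arrays limits the precision. The design text calls the cultures biological replicates.

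The members and all gene lists were chosen with earlier results of these data known. Besides the 5 members and 12 genes always given, the text names the 3 called genes of each list with the largest ratio and the same sign on all arrays, and the 3 genes most like each member. A gene that this rule names is not reported here. The alternatives covered normalization, background correction, the filter, the probe choice, the pairing and leaving out each replicate.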

Additional observations from a re-analysis of the deposited data

Results flagged for a closer look

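Of 50 sets of 4 values examined, 3 held a value far from the other 3, and chance gives about 1 in 20. The control level of Serpine2 in replicate 4 was 12.02 on the log2 scale, with a gap to its nearest neighbour of 0.904 of the whole range. The log2 ratio of S100a10 in replicate 3 was 2.07 (gap 0.941 of the range). The log2 ratio of Serpinb6b in replicate 4 was 2.29 (gap 0.869 of the range).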

How the results depend on the processing

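Leaving out 1 array at a time gave 0.81 to 0.95 for Plat, 0.71 to 0.83 for Plau, -0.71 to -0.65 for Plaur, -3.66 to -3.54 for Serpinb2 and 1.12 to 1.33 for Serpine2, and 1 to 2 lower calls among the soluble inhibitors. Second brightest probes gave 0.28 for Plau, 0.48 for Plat and -0.89 for Plaur, and means of kept probes gave 0.53, 0.68 and -0.79. Serpinb2 was at -4.17 with median-centred processed signals, at -4.28 with LogRatio or the deposited matrix, and at -3.83 with offset 10; Plaur was at -0.84 with LogRatio or the matrix. With LogRatio or the matrix, 41.6% of called genes were higher instead of 54.9%, and 5 FGF and ERK genes were called higher. Serpins called lower numbered 2 with LogRatio, the matrix, processed signals or offset 10, and 0 with the strict filter, which left 1 soluble inhibitor lower. Median centring in place of loess called 3572 instead of 5696 genes lower, with 0 soluble inhibitors and 2 receptors lower. Second brightest probes, which fewer genes have, called 2482 genes higher and 1780 lower; higher and lower calls were 3 and 0 for soluble inhibitors, 8 and 1 for receptors, 7 and 1 for targets and 3 and 0 for serpins, with 2 higher FGF and ERK genes. Etv5 turned to -0.57 on its second probe and to -0.26 on the mean of its probes. Treated and control cultures are paired by the array they share. Ignoring that pairing (no replicate block) called 6684 genes higher and 5458 lower, with unchanged counts for the 5 lists. Of 331 values of 23 other named genes, 328 kept their side of the threshold. Other causes were not tested, and low signal limits the dim Plau and Plat probes.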
